A study of Mus musculus with 31 samples.

Results

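miR-21-5p is a microRNA (miRNA), a short RNA that lowers the output of the messenger RNAs whose 3' ends it pairs with. It was followed here in the lungs of mice that breathed cigarette smoke or room air. It is 1 of the 611 mouse miRNAs on the array and was picked by its name, with earlier results of these data known: both probes that the scanner files assign to mmu-miR-21-5p were taken, each printed as 10 spots per array. The study measured miRNAs in whole lungs of female BALB/c mice, an inbred strain, in a model of chronic obstructive pulmonary disease. Mice had breathed smoke or, as controls, room air for 4, 6, 8 or 12 weeks, which gives 8 groups on 31 one-colour Agilent miRNA arrays: 4 smoke and 4 control arrays at 4, 6 and 8 weeks, and 3 smoke and 4 control arrays at 12 weeks. Neither the age of the mice nor the dose of smoke is stated. No source says that each array holds a different mouse, so the p-values describe how far these samples spread, and that spread could be technical.

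miR-21 is made from a hairpin precursor that Drosha and Dicer cut. One arm, miR-21-5p, is loaded into Argonaute proteins as the guide, and the other arm, miR-21-3p, is mostly degraded. Its transcription is raised by AP-1, STAT3 and NF-kB, all of which act in inflammation. Among its known targets are Pdcd4, Spry1 and Smad7, which restrain translation, growth factor signalling and TGF-beta signalling, and in mouse lung it has been tied to fibroblast activation.

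The mouse gene Mir21a lies at chr11:86584067-86584158 on the minus strand of GRCm38.p6, within the span of Vmp1 (chr11:86583858-86683836), a gene for a membrane protein of autophagy. Only 209 bases separate it from the lower end of that span. The sequences below, from RefSeq on GRCm38.p6, are given because they define what the probes read and which other miRNAs could be read with it. In the hairpin the capitals mark both mature arms. In the other sequences they mark the seed, bases 2 to 8, which leads target pairing.
Mir21a hairpin: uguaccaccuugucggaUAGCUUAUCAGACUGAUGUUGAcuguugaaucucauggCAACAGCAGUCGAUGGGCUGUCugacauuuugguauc
mmu-miR-21a-5p: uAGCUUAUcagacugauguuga
mmu-miR-21a-3p: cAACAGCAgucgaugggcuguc
mmu-miR-21c: uAGCUUAUcagacugguacaa
mmu-miR-21b: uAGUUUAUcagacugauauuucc

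RefSeq now calls the product miR-21a-5p, since relatives named miR-21b (chromosome 3) and miR-21c (chromosome 8) were added to the mouse catalogue. Of 1679 mature mouse miRNAs in that table, 2 carry the seed of miR-21a-5p, itself and miR-21c. The table does not list miR-590-5p, a further member of this seed family. miR-21c shares its first 15 bases, and miR-21b has 1 difference within the seed. Neither has an entry of its own on this array, so signal from them on the miR-21-5p probes cannot be told apart from that of miR-21a-5p.

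miR-21-5p was read with little variation between spots of a probe on the same array, which does not cover variation between arrays. All 620 of its spots over the 31 arrays were well above background, none was saturated, and 21 were left out as outliers. The coefficient of variation between spots of a probe on the same array ran from 2.20% to 9.87% for the brighter probe and from 0.819% to 5.21% for the other. The brighter probe had a mean signal of 19672 to 62945 units on smoke arrays and of 9847 to 38124 on control arrays. These unscaled signals also carry the brightness of each array, whose 75th percentile, taken over 385 probes that every array detected, was 1201 to 2441 units on smoke arrays and 1018 to 3725 on control arrays. Before scaling, 10 of 15 smoke arrays were above every control array. Each array was therefore divided by that percentile, and values below are log2 of the scaled signal, so that 0 is the percentile itself.

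After scaling, miR-21-5p was higher on every smoke array than on every control array. The brighter probe read 4.03 to 5.02 on the 15 smoke arrays, with a median of 4.53, and 3.26 to 3.60 on the 16 control arrays, with a median of 3.39. The lowest smoke array lay 0.43 above the highest control array. In the authors' deposited table, 14 of 15 smoke arrays were above every control array, and the exception was a 4 weeks array. Among the 271 tested miRNAs, 4 (1.48%) were separated in this way, with higher smoke values, and none with lower ones.

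At 4 weeks the smoke arrays read 4.49, 4.03, 4.32 and 4.53, against 3.49, 3.28, 3.39 and 3.34 on the control arrays. The groups did not overlap, and the smoke arrays were more spread than the controls, with array 2 the lowest of all 15 smoke arrays. The difference was 0.97 ± 0.092 log2 (SE), or 1.95-fold with a 95% interval of 1.71 to 2.23 (limma, adjusted p 7.82e-09 over 271 miRNAs). This is the duration at which most miRNAs moved: 37.6% of those tested changed (adjusted p at most 0.05), 25.8% upward, and the median of all tested was itself 0.18 log2 higher in smoke lungs. The 102 miRNAs called here became 37 without smoke array 2, 40 without smoke array 3, 41 without control array 4 and 16 without smoke arrays 2 and 3, and without both of those arrays the median was 0.032 log2. The size also depended on scaling here, since quantile scaling gave 0.52 log2 (adjusted p 0.0145). In the deposited table the lowest smoke array of 4 weeks read 14.0 log2, under the highest control array at 14.3, and 3 of 4 smoke arrays were above every control array.

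At 6 weeks miR-21-5p read 4.59, 4.39, 4.64 and 4.68 on smoke arrays, against 3.29, 3.26, 3.29 and 3.27 on control arrays. The 4 controls lay within 0.033 log2 of one another, closer than any other group. The difference of 1.29 ± 0.092 log2 was 2.45-fold, with an interval of 2.15 to 2.80 (limma, adjusted p 1.29e-11). Here 7.75% of tested miRNAs changed, and 7.38% rose.

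At 8 weeks the smoke arrays read 4.44, 4.49, 4.36 and 4.73, against 3.38, 3.46, 3.42 and 3.43 on the control arrays. Array 4 stood at the top of the smoke group, and the lowest smoke array was 0.90 above the highest control. Smoke exceeded control by 1.08 ± 0.092 log2, or 2.12-fold with an interval of 1.86 to 2.42 (limma, adjusted p 1.02e-09), at a duration at which 10.7% of miRNAs changed and 3.69% rose. This value rests on scaling: the smoke arrays of 8 weeks were dimmer as a whole, with a 75th percentile of 1229 to 1681 units against 2337 to 3472 for the controls, and without scaling the difference was 0.26 log2 (adjusted p 0.455).

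At 12 weeks the smoke arrays read 4.96, 5.02 and 4.83, against 3.60, 3.35, 3.56 and 3.49 on the control arrays. The lowest smoke array was 1.23 above the highest control. The difference of 1.44 ± 0.099 log2 was 2.71-fold, with an interval of 2.35 to 3.12 (limma, adjusted p 6.78e-12), while 9.23% of tested miRNAs changed and 5.17% rose. Averaged over the 4 durations, miR-21-5p was 1.20 ± 0.047 log2 higher in smoke lungs, a 2.29-fold difference (interval 2.14 to 2.45, limma, adjusted p 8.94e-18), where 26.9% of miRNAs changed and 15.5% rose. In whole lung, a larger share of cells that carry miR-21 and more miR-21 per cell cannot be told apart.

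Taken as a single value, the same differences gave an exact two-sided permutation p of 0.0286 at 4, 6 and 8 weeks, the smallest that 4 against 4 arrays allow. The p at 12 weeks was 0.0571, the smallest that 3 against 4 allow, so this test could not pass 0.05 there. For the averaged difference over all 31 arrays, smoke and control were permuted within each duration. The permutation p was 1e-05, the smallest that 100000 resamples can give.

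**Figure D1:**
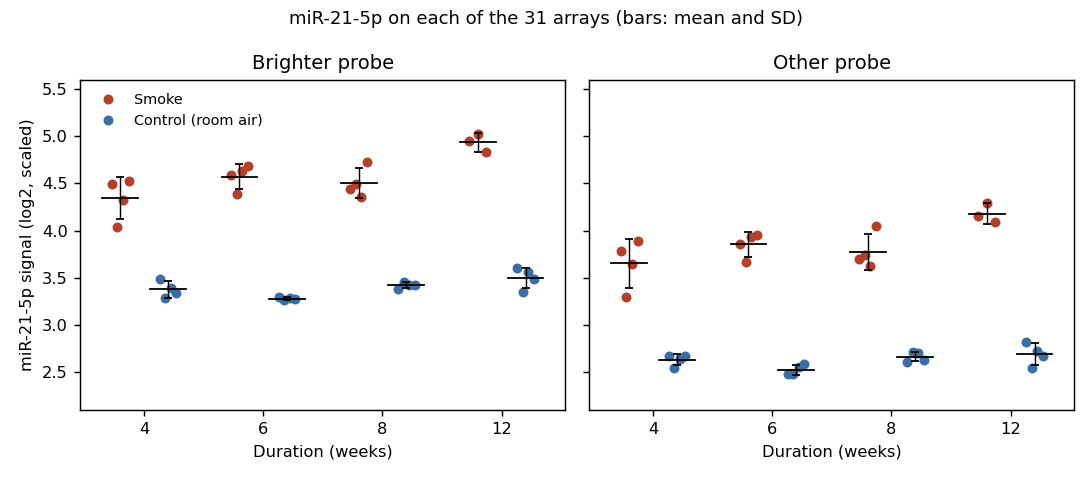
Log2 scaled signal of miR-21-5p (vertical axis) by weeks of exposure (horizontal axis), with 1 point per array, smoke left of control at each duration, a line at the group mean and bars of 1 SD, for the brighter probe on the left and the other probe on the right. Every smoke point lies above every control point on both probes, and the 3 smoke points of 12 weeks, from 4.83 to 5.02 on the brighter probe, are the highest.

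Both probes gave the same picture. The dimmer probe read 3.30 to 4.30 on smoke arrays and 2.48 to 2.82 on control arrays, again with no overlap. Its smoke difference was 1.02 log2 at 4 weeks, 1.33 at 6 weeks, 1.11 at 8 weeks and 1.49 at 12 weeks, and it averaged 1.24 ± 0.052 (limma, adjusted p 4.10e-17). The gap between the probes was 0.63 to 0.80 log2 on smoke arrays and 0.67 to 0.84 on control arrays, a far smaller range than the smoke difference.

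Ordered by mean level, the 12 weeks smoke group stood first, at 4.94 ± 0.098 (SD, n = 3). The smoke groups of 6 weeks (4.57 ± 0.13), 8 weeks (4.51 ± 0.16) and 4 weeks (4.34 ± 0.23; SD, n = 4 each) followed, and each overlapped its neighbour. The control groups came last, at 3.50 ± 0.11 for 12 weeks, 3.42 ± 0.030 for 8 weeks, 3.38 ± 0.088 for 4 weeks and 3.28 ± 0.015 for 6 weeks (SD, n = 4 each). Only 2 gaps in this order were free of overlap: that between the 12 weeks smoke group and the next, of 0.36 log2 between means, and that between the lowest smoke and the highest control group, of 0.84 log2.

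Among smoke lungs miR-21-5p differed between durations (limma F = 12.3, adjusted p 0.00474), when 2.95% of tested miRNAs did. All 3 smoke arrays of 12 weeks were above every other smoke array, the highest of which read 4.73. The 12 weeks array was therefore also the highest smoke array on each of the 3 slides that hold one. The 4 weeks array was the lowest smoke array on 3 of 4 slides. This call did not hold under other scalings: its adjusted p was 0.0976 with the 75th percentile of all probes, 0.0728 with quantile scaling, 0.736 with none, 0.652 with normexp background correction and 0.167 in the deposited table. Among control lungs no difference between durations was found (F = 1.99, adjusted p 0.262), where 6.64% of miRNAs passed. Control arrays had an order within slides too: the 6 weeks array was the lowest on every slide. The 12 weeks array was the highest control array on slides 2, 3 and 4, and the 4 weeks array on slide 1.

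Whether the smoke effect itself changed with duration was tested directly. It was 0.47 ± 0.14 log2 larger at 12 weeks than at 4 weeks, with a 95% interval of 0.19 to 0.75. This missed the threshold (limma, adjusted p 0.0541, where 1.11% of miRNAs passed). The F test over all 4 durations missed it too (F = 4.92, adjusted p 0.0785, where 6.27% passed). Among 268 tested mouse miRNAs the excess at 12 weeks had rank 32 from the most positive down and 105 by size in either direction. Divided by its error (moderated t) it had rank 9. The median of these miRNAs was -0.23 log2, and 112 of all 271 tested had an unadjusted p under 0.05 (limma). Smoke arrays 2 and 3 of 4 weeks, without which 16 miRNAs were called at 4 weeks against 102, are the lowest of their group for miR-21-5p. Without them the 4 weeks difference was 1.13 log2 and the excess at 12 weeks was 0.30 log2 (adjusted p 0.400). Leaving out the lowest arrays had to raise the 4 weeks difference and shrink the excess, so these values are no independent check.

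miR-21-5p ranked near the top of the array when differences were ordered from the most positive down. Its averaged difference had rank 3 among 268 tested mouse miRNAs, whose median was -0.0062 log2. Only miR-135b-5p, a miRNA induced in inflamed mouse lung, and miR-146b-5p, which dampens Toll-like and interleukin-1 receptor signalling through Traf6 and Irak1, ranked above it. The signal of miR-135b-5p lay at the lower limit of the scale on all control arrays, so its size depends on that limit. miR-146b-5p was 1.24 ± 0.040 log2 higher, which is 0.045 above miR-21-5p, close to the standard error of each. Directly below came miR-122-5p, the main miRNA of liver, at 1.02 ± 0.50 log2, which did not pass (limma, adjusted p 0.129) and was carried by 12 weeks smoke array 3, at 1.57 against the scale's lower limit of -6.74 on every control array. miR-122-5p did pass with the scanner's summed signal (1.92 log2, limma, adjusted p 0.0285) and in the deposited table (1.44 log2, limma, adjusted p 0.0366).

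By duration, in the same order, miR-21-5p had rank 4 at 4 weeks, rank 3 at 6 weeks, rank 2 at 8 weeks and rank 4 at 12 weeks. By size in either direction its rank was 15 at 4 weeks, and the same as before at the other durations. By moderated t, which divides the difference by its error, it had rank 3 at 4, 6 and 12 weeks and on average. Its within-group spread was small for this array: a pooled SD of 0.13 log2, the 34th smallest of the 205 mouse miRNAs detected on all arrays, whose median was 0.21. Brightness of the best probe placed miR-21-5p at ranks 2 to 9 of 611 mouse miRNAs on smoke arrays, with a median of 3, and at ranks 7 to 12 on control arrays, with a median of 9. Probes differ in how well they bind, so this is a rank of brightness and not of abundance.

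**Figure D2:**
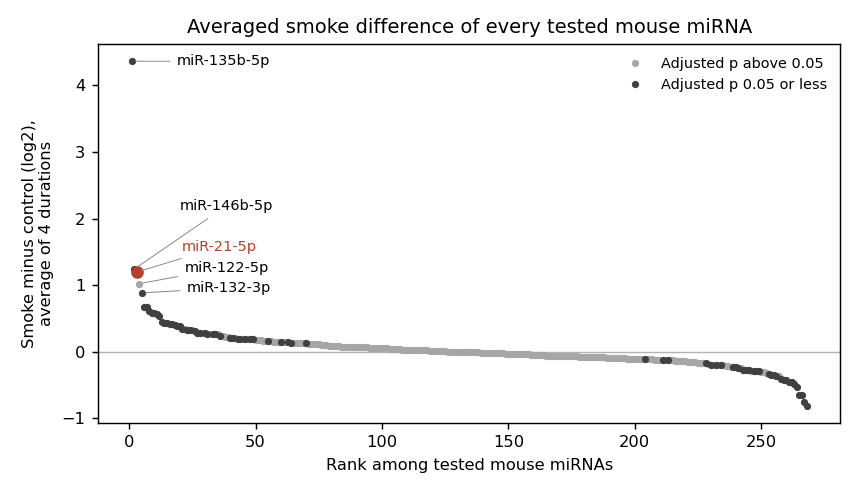
Averaged smoke minus control difference in log2 (vertical axis) of each of the 268 tested mouse miRNAs, ordered by rank (horizontal axis), with dark points for an adjusted p of 0.05 or less and grey points for the rest. miR-21-5p, in red at 1.20, is at rank 3, next to miR-146b-5p at 1.24 and far below miR-135b-5p.

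The other arm of the hairpin could not be followed. miR-21-3p has its own entry, and so has miR-590-5p, yet neither was well above background on any of the 31 arrays. The rise was thus measured on the guide arm alone, and no ratio between the arms can be given.

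By the likeness of their 8 group means, each centred on its own average, the nearest miRNA was miR-146b-5p, at a root mean square difference of 0.13 log2. It was followed by miR-132-3p (0.25), whose gene is a target of CREB and which acts in macrophage and endothelial activation, and by miR-34a-5p (0.28), a p53-induced miRNA of cell cycle arrest. The median over tested mouse miRNAs was 0.64, and a flat profile would be 0.62 from miR-21-5p. None of the 3 shares the seed of miR-21-5p, as their RefSeq sequences show, again with the seed in capitals.
mmu-miR-146b-5p: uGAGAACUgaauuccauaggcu
mmu-miR-132-3p: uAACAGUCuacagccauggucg
mmu-miR-34a-5p: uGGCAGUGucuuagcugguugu

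miR-146b-5p read 0.44, 0.70, 0.59 and 0.45 on the smoke arrays of 4 weeks, against -0.52, -0.76, -0.80 and -0.87 on the control arrays. At 12 weeks it read 0.80, 0.79 and 0.67 on smoke arrays, against -0.69, -0.67, -0.67 and -0.62 on control arrays. It did not overlap either, but its differences ran otherwise over time: 1.28 log2 at 4 weeks, 1.41 at 6 weeks, 0.85 at 8 weeks and 1.42 at 12 weeks. Its smoke effect differed between durations (limma F = 11.0, adjusted p 0.0108), with the lowest value at 8 weeks, where that of miR-21-5p was 1.08.

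miR-132-3p was dim, between -5.47 and -4.46 on smoke arrays and between -6.28 and -5.52 on control arrays. It rose by 0.88 ± 0.086 log2 on average (limma, adjusted p 8.60e-09), with its largest difference at 4 weeks, where that of miR-21-5p was smallest. Raising the floor on low signals 4 times left a difference of 0.017 log2 (adjusted p 0.581), and normexp background correction left 0.12 log2 (adjusted p 0.815). miR-34a-5p rose by 0.67 ± 0.076 log2 on average (limma, adjusted p 1.38e-07), and passed at 4, 6 and 12 weeks. At 8 weeks its difference was 0.34 log2 (adjusted p 0.165). Without scaling the averaged difference of miR-34a-5p was 0.52 log2 and did not pass (limma, adjusted p 0.113).

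**Figure D3:**
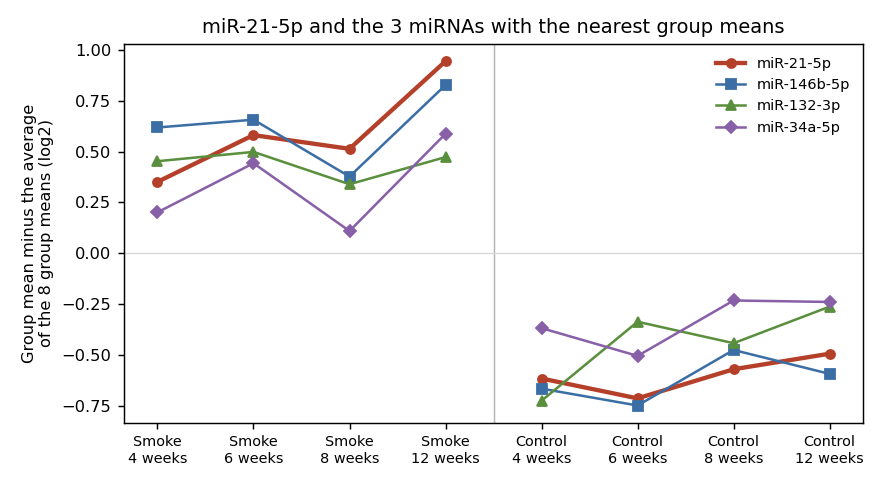
Group means of miR-21-5p and of the 3 miRNAs nearest to it (vertical axis, log2 difference from the average of each miRNA's 8 group means) in the smoke and control groups of 4, 6, 8 and 12 weeks (horizontal axis). All 4 miRNAs lie above 0 in each smoke group and below 0 in each control group, and the lowest smoke mean is at 4 weeks for miR-21-5p but at 8 weeks for the other 3.

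miR-21-5p was read beside 2 lists of miRNAs from its known settings. Both lists were chosen with earlier results of these data known, so the shares below are descriptions and not independent support. Of 10 miRNAs that respond to inflammation, 8 were tested, and 7 rose on average at a background of 15.5%. Their median was 0.48 log2, against -0.0054 for all tested miRNAs and 1.20 for miR-21-5p. Besides those named above they were miR-31-3p (0.42 log2) and miR-31-5p (0.41), both arms of an epithelial injury miRNA, miR-146a-5p (0.43), the closest relative of miR-146b-5p, and miR-155-5p (0.54), a miRNA of activated macrophages and lymphocytes. miR-212-3p, the cluster partner of miR-132-3p, did not pass (0.082 log2, adjusted p 0.642). miR-147-3p and miR-9-5p were too dim to test. miR-135b-5p was detected on 15 smoke arrays but on only 3 control arrays. With detection on every array, or with a floor 4 times higher, 6 of the list were fitted and 5 rose. The count of 7 was 3 with normexp, where miR-155-5p (adjusted p 0.754) and miR-132-3p did not pass, nor did the -5p arm (adjusted p 0.753) and the -3p arm (adjusted p 0.922) of miR-31. Without scaling it was 4, as miR-146a-5p (adjusted p 0.205) and both arms of miR-31 (adjusted p 0.255 for -5p and 0.256 for -3p) did not pass. At 8 weeks only 3 of these 8 rose, at a background of 3.69%, whereas miR-21-5p was 2.12-fold higher.

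Of 14 miRNAs linked to lung fibrosis, 13 were tested. In the fit reported 2 rose on average, miR-155-5p and miR-199a-3p (0.13 log2, limma, adjusted p 0.0296), and none fell. That share is close to the 15.5% of all tested miRNAs that rose. The median of the list was 0.058 log2. miR-155-5p did not pass with normexp. miR-199a-3p did not pass without scaling, with normexp (adjusted p 0.354), with the scanner's summed signal (0.416) or without smoke arrays 2 and 3 of 4 weeks (0.0665), nor with any of 5 single arrays left out: smoke array 1 or 4 of 8 weeks, smoke array 3 of 12 weeks, control array 2 of 6 weeks or control array 1 of 12 weeks (adjusted p 0.05005 to 0.0551). miR-29a-3p, which restrains collagen genes, was 0.058 log2 higher (adjusted p 0.314), and let-7d-5p, a miRNA of lung epithelium that is lower in fibrotic human lung, 0.068 log2 higher (adjusted p 0.544). miR-29b-3p was at -0.29 log2 (adjusted p 0.294) and miR-30a-5p at -0.11 log2 (adjusted p 0.130). Other settings added calls. miR-30a-5p fell with the scanner's summed signal (-0.21 log2, limma, adjusted p 0.00614). miR-145-5p fell without smoke arrays 2 and 3 of 4 weeks (-0.23 log2, adjusted p 0.0247). miR-200c-3p rose with the 75th percentile of all probes (0.24 log2, adjusted p 0.000581) and with quantile scaling (0.24 log2, adjusted p 0.0161). The averaged differences of the list ran from -0.29 log2 for miR-29b-3p to 0.54 for miR-155-5p, all below the 1.20 log2 of miR-21-5p. At 4 weeks miR-29b-3p fell by 1.08 log2 (limma, adjusted p 0.0284), a larger size than the 0.97 of miR-21-5p.

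Marker miRNAs of the cells that a lung sample can hold were read on the same arrays. On average 15.5% of all tested miRNAs rose and 11.4% fell, and lists of 2 to 5 markers are too short to set a share against these. The 5 leukocyte markers (miR-142-3p, miR-142-5p, miR-150-5p, miR-223-3p and miR-342-3p), all detected on every array, summed to a scaled signal of 5.67 to 11.1 on smoke arrays and 7.46 to 10.6 on control arrays, and on average 1 of 5 rose and 2 fell. miR-142-3p and miR-142-5p, found in nearly all blood-derived cells, were each 0.65 log2 lower in smoke lungs, and miR-342-3p was 0.32 log2 higher. Neither miR-223-3p (0.34 log2) nor miR-150-5p (-0.30 log2) passed. The sums add unlogged signals, so the brightest probes weigh most. The 5 epithelial markers of the miR-200 family summed to 6.23 to 8.44 on smoke arrays and 5.89 to 7.41 on control arrays, and 1 of 5 rose, miR-429-3p, by 0.27 log2. The endothelial pair of miR-126 arms summed to 26.2 to 32.4 on smoke arrays and 27.2 to 37.0 on control arrays, and miR-126-3p fell by 0.13 log2. The 4 smooth muscle and mesenchymal markers summed to 5.10 to 6.47 on smoke arrays and 4.80 to 6.23 on control arrays, with miR-199a-3p the one that rose. The 4 multiciliated markers summed to 1.06 to 3.11 on smoke arrays and 1.34 to 2.70 on control arrays, and miR-449a-5p rose by 0.67 log2. The sums of striated muscle markers were 1.34 to 7.18 on smoke arrays and 0.848 to 6.79 on control arrays, and those of erythroid markers 61.0 to 84.0 on smoke arrays and 52.7 to 92.0 on control arrays, with no member of either list called in the averaged comparison.

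Pooled over durations the ranges of each list overlap, but within durations several do not. Each of these separations compares few arrays. The share of all tested miRNAs that separate within a duration was not computed, so they have no background to be set against. At 4 weeks 37.6% of all tested miRNAs changed. Whether the separations reflect cell composition was not tested. Leukocyte sums were lower on every smoke array than on every control array at 4 weeks (5.67 to 8.73 against 9.25 to 9.57), 6 weeks (6.77 to 7.16 against 7.46 to 9.27) and 12 weeks (6.40 to 7.92 against 9.08 to 10.6). Epithelial sums were higher on every smoke array at 4 weeks (6.74 to 8.44 against 5.89 to 6.601), 6 weeks (7.17 to 7.56 against 6.40 to 6.87) and 12 weeks (7.49 to 7.61 against 6.94 to 7.41). At 8 weeks no list was separated. The smoke range there was wide for leukocyte sums (6.21 to 11.1 against 7.91 to 8.07) and striated muscle sums (1.34 to 7.18 against 1.43 to 1.75). Endothelial sums were lower on every smoke array at 12 weeks (28.4 to 30.8 against 33.6 to 35.3). Mesenchymal sums (5.95 to 6.15 against 4.80 to 5.91) and striated muscle sums (1.47 to 1.99 against 0.848 to 0.987) were higher on every smoke array at 6 weeks, and erythroid sums at 12 weeks (72.0 to 76.5 against 61.9 to 67.3). Multiciliated sums were lower on every smoke array at 4 weeks (1.06 to 2.03 against 2.26 to 2.66) and higher at 12 weeks (2.12 to 2.91 against 1.79 to 2.09).

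Single markers were also called at single durations, most of them at 4 weeks, where 25.8% of all tested miRNAs rose and 11.8% fell. There 2 leukocyte markers rose, miR-342-3p (0.86 log2) and miR-223-3p (0.76), and 2 fell, miR-142-3p (-1.28) and miR-142-5p (-1.06). Of the other lists, 3 epithelial and 1 mesenchymal marker rose, and 2 multiciliated, 2 striated muscle and 1 erythroid marker fell. The muscle pair was miR-133a-3p (-0.93 log2, limma, adjusted p 0.0426) and miR-133b-3p (-0.98, adjusted p 0.0398), and the erythroid marker was miR-144-3p (-1.31, adjusted p 0.0474). Other members of these lists went the opposite way at 4 weeks without passing. Among epithelial markers these were miR-141-3p (-0.93 log2, limma, adjusted p 0.0501) and miR-200a-3p (-0.28). The others were mesenchymal miR-143-3p (-0.11), multiciliated miR-34b-3p (0.27) and erythroid miR-451 (0.11). At 6 and 12 weeks 1 epithelial and 1 multiciliated marker rose, miR-429-3p and miR-449a-5p. Of all tested miRNAs, 7.38% rose at 6 weeks and 5.17% at 12 weeks. At 12 weeks miR-126-3p fell (-0.25 log2, limma, adjusted p 0.0416), where 4.06% of all tested miRNAs did. At 8 weeks no marker was called. The part of cell composition in the miR-21-5p difference was not tested. Without the 3 arrays high in striated muscle markers, the averaged miR-21-5p difference was 1.22 log2.

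Slides hold both groups of every duration, apart from 1 slide without a 12 weeks smoke array. Within slides the averaged difference was 1.24, 1.10, 1.14 and 1.30 log2, the last over 3 durations. The 15 within-slide differences at one duration ran from 0.75 to 1.60. They had to be positive, since every smoke array was above every control array. With slide as a block the averaged difference was 1.20 ± 0.045 log2 (limma, adjusted p 1.38e-16). On every slide smoke arrays sit in 1 line of positions and control arrays in the other, with 1 duration per column, so position cannot be told apart from smoke or duration.

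**Figure D4:**
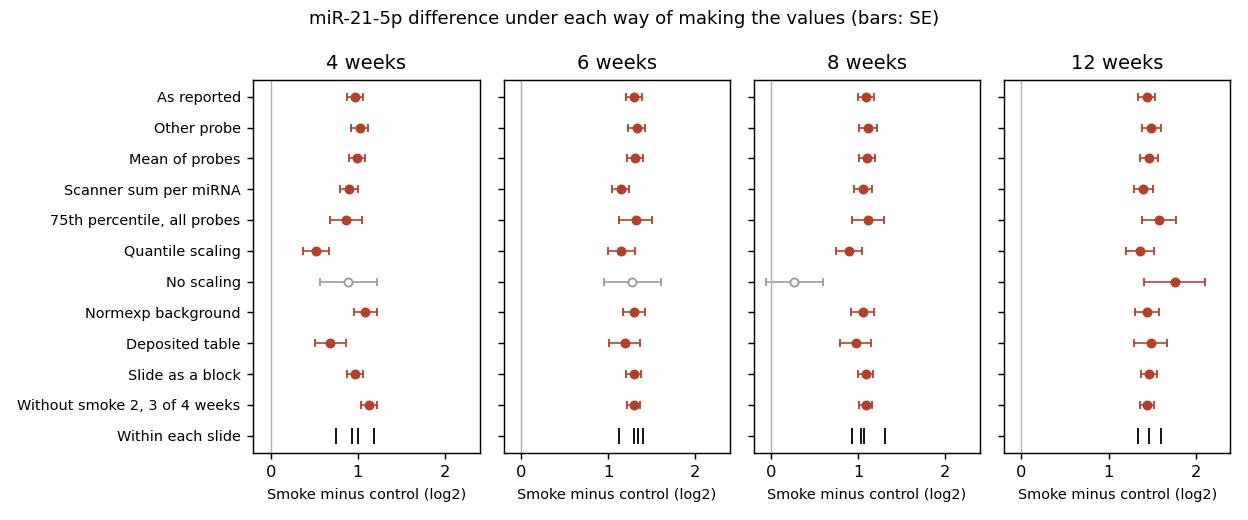
Smoke minus control difference of miR-21-5p in log2 (horizontal axis, points with bars of 1 SE) at each duration under each way of making the values (rows), with filled points for an adjusted p of 0.05 or less, open points for the rest, and black ticks for single slides. All points are above 0, and 3 are open, those without scaling at 4, 6 and 8 weeks.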

How the data were processed

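Total RNA from lungs was extracted with TRIzol and labelled with Cy3 at its 3' end, per the labels. Per the file headers, Feature Extraction 10.7.3.1 made each spot's intensity by subtracting background and detrending, without normalization between arrays. The authors' deposited table holds log2 values normalized in a way that no source used here gives, with column medians of 2.71 to 2.85.

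Spots flagged as outliers and control spots were left out, spots of a probe were averaged, and a probe counted as detected with 50% of its spots above background. Arrays were scaled as given above. Signals under a floor of -6.74 log2 were set to it, and the brightest probe stood for each miRNA. Detection on 75% of the arrays of any group left 273 miRNAs, and 2 at the floor on every array were dropped, which leaves 271 (268 mouse, 3 viral). Group means were fitted by limma 3.58.1 under R 4.3.3 with 23 residual degrees of freedom, and p-values were adjusted by Benjamini and Hochberg over all 271. Rose, fell and changed mean an adjusted p of at most 0.05. The fit was tested on simulated data. The number of arrays limits the precision.

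miR-21-5p, the lists and the naming rule (list members, both neighbours in rank, the 3 nearest profiles) were chosen with earlier results of these data known. The normexp alternative used median spot signals, with an offset of 50, since mean spot signals are not used here. Of 15 smoke and control pairs of the same replicate number, 9 had deviations from their group means that correlated above 0.1 (r from -0.47 to 0.54), among them all 4 pairs of 4 weeks (r from 0.11 to 0.38). At 4, 6 and 8 weeks the number is also the slide number, so both pairings are the same there. Paired by slide at 12 weeks as well, 10 of 15 pairs were above 0.1 (r from -0.046 to 0.54). Since not every pair was, the replicate number is no term of the fit reported, and number and slide were each tried as a block.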

Additional observations from a re-analysis of the deposited data

Results flagged for a closer look

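The smoke effect on miR-146b-5p, the miRNA with the profile nearest to miR-21-5p, differed between durations by the moderated F test (limma, adjusted p 0.0108), with differences of 1.28 log2 at 4 weeks, 1.41 at 6 weeks, 0.85 at 8 weeks and 1.42 at 12 weeks. The same test gave an adjusted p of 0.0785 for miR-21-5p. In 30 groups of 4 arrays, over miR-21-5p and the miRNAs nearest to it in profile or rank, no array stood apart from its group by Dixon's test. The 12 weeks smoke group, of 3 arrays, was not among them, so its array 3, at 1.57 for miR-122-5p, was not tested.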

How the results depend on the processing

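The averaged miR-21-5p difference stayed positive and passed under all 16 alternatives with a test, from 0.98 log2 with quantile scaling to 1.24 with the other probe, and with each array left out (1.18 to 1.22). Without scaling, the differences at 4 weeks (0.89 log2, adjusted p 0.193), 6 weeks (1.28, 0.0527) and 8 weeks (0.26, 0.455) no longer passed. Leaving out 1 array gave 0.91 to 1.07 at 4 weeks, 1.26 to 1.36 at 6 weeks, 1.01 to 1.13 at 8 weeks and 1.39 to 1.49 at 12 weeks, all passing. Within slides, differences beyond the replicate spread were 0.75 (slide 2) and 1.18 (slide 4) at 4 weeks, 1.31 (slide 4) at 8 weeks, and averages of 1.10 (slide 2) and 1.30 (slide 4, over 3 durations). The excess at 12 over 4 weeks passed with quantile scaling (0.84 log2, adjusted p 0.0378), the mean of all probes (0.47, 0.0480), the deposited table (0.80, 0.0469), detection on every array (0.47, 0.0483) and a floor 4 times higher (0.47, 0.0394). With 1 array left out it was 0.37 to 0.53 and passed in 9 of 31 cases, without smoke array 1 or 4 of 4 weeks, 3 or 4 of 8 weeks or 3 of 12 weeks, or any control array of 6 weeks. The adjusted p for the effect of smoke differing over time was then 0.0239 to 0.140, and passed without smoke array 1 or 4 of 4 weeks or 4 of 8 weeks, that for durations among smoke lungs 0.000560 to 0.0402, and that for control lungs 0.130 to 0.416. Durations among smoke lungs did not pass with the 75th percentile of all probes (0.0976), quantile scaling (0.0728), no scaling (0.736), normexp (0.652) or the deposited table (0.167). The rank of 3 was 6 with the summed scanner signal and 3 to 4 with 1 array left out. Of the list members called in the fit reported, 2 changed sign under a setting and no longer passed. They were miR-31-3p at -0.041 log2 with normexp (limma, adjusted p 0.922) and miR-199a-3p at -0.020 without scaling (adjusted p 0.936). Some members that were not called also changed sign. The causes were not tested.

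With the replicate number as a block, the averaged difference was 1.20 log2 and the excess at 12 weeks 0.49 (adjusted p 0.0533), and no miR-21-5p call changed. With slide as a block these were 1.20 log2 and 0.50 (adjusted p 0.0620), again with no miR-21-5p call changed, and 87 miRNAs were called at 4 weeks. The number of miRNAs called over all tested moved more, from 12 to 119 for the averaged comparison, 4 to 149 at 4 weeks, 2 to 36 at 6 weeks, 3 to 203 at 8 weeks, 4 to 96 at 12 weeks and 0 to 95 for 12 minus 4 weeks. Normexp moved the median of all tested miRNAs at 4 weeks to -0.76 log2, against 0.18, while miR-21-5p stayed at 1.09.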
